A study of Mus musculus with 3 samples.

Results

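Cystatins are small proteins that block papain-like cysteine proteases, and cathepsins are the proteases that break down proteins inside lysosomes, the acidic digestive compartments of the cell. The cystatins C, E/M and B (genes Cst3, Cst6 and Cstb) and the cathepsins B, D, F, H, K, L and Z (Ctsb, Ctsd, Ctsf, Ctsh, Ctsk, Ctsl and Ctsz) were followed in sorted mouse leptomeningeal cells. These 10 genes were taken by symbol from the 46983 genes of the count table, and each matched 1 row. They were chosen by their counts in the same 3 libraries, with earlier results known, so their levels are given as a description.

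The leptomeninges are the thin inner membranes around the brain. They were microdissected from vehicle-treated mice, dissociated and sorted, and 3 libraries of 1 group, labelled as a pia enriched fraction, were sequenced after low-input cDNA amplification. The labels give no strain, genotype, sex or age, no sorting gate, and no statement of what the vehicle accompanied. Nothing says that the libraries came from separate animals, so p-values measure only the spread between these samples, which may be technical. No treated group belongs to the samples analysed here, and the comparisons are between genes and between libraries.

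Cystatin C is secreted and abundant in cerebrospinal fluid, where it meets cathepsins that have left the cell. Cystatin B stays in the cytosol and guards against protease that leaks from lysosomes. Cathepsins B, F, H, K, L and Z use a catalytic cysteine and are of the class that cystatins bind, whereas cathepsin D is an aspartic protease outside their reach. Many lysosomal genes carry the E-box CACGTG near their start, the core of the element bound by the lysosomal regulators TFEB, TFE3 and MITF.

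RefSeq promoters on GRCm38.p6, from 250 bases before to 50 after the start, were at hand for 6 of the 10 genes. CACGTG, which reads the same on both strands, stood in those of Ctsd, Ctsf and Ctsl, and in 7.15% of all 32851 promoters of that length. Ctsd held 2 copies, starting 245 and 98 bases before its start, each followed by the bases AC, so that they also match the longer form GTCACGTG or its reverse complement CACGTGAC, found in 2.25% of all promoters. The copy of Ctsf began 79 bases and that of Ctsl 236 bases before the start. These distances are from the RefSeq start. In the GENCODE annotation Ctsl, Ctsd and Cst3, all on the minus strand, begin further upstream, at 64370890, 142388038 and 148875692. The Ctsl copy, the Ctsd copy at 98 bases and most of the Cst3 sequence below therefore lie within the annotated genes. Ctsf, on the plus strand, also begins further upstream there, at 4855130, but its copy lies before that start. The sequences below contrast the GC-rich Ctsd promoter, which had 33 CpG dinucleotides in its 300 bases, with those of Cst3 (13) and Ctsk (2), in which CACGTG was not found, against a median of 7 over all promoters. Capitals mark CACGTG. All are 5′ to 3′ on the strand of the gene. Those of Ctsd, Cst3 and Ctsk are the 250 bases before the RefSeq start, and those of Ctsf and Ctsl are 60 bases holding the E-box. For Ctsk alone of the 6, the bases just after the RefSeq start were not found in a GENCODE transcript of the gene.
Ctsd, chr7:142387828-142388077, minus strand: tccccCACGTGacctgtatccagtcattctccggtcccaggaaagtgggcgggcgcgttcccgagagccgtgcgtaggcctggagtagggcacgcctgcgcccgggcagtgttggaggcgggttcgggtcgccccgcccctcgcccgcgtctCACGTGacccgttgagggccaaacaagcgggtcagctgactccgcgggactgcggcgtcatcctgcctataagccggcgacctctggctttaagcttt
Ctsf, chr19:4855059-4855118, plus strand: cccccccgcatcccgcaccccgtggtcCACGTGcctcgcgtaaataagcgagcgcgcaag
Ctsl, chr13:64370711-64370770, minus strand: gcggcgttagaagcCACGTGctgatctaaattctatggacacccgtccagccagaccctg
Cst3, chr2:148875513-148875762, minus strand: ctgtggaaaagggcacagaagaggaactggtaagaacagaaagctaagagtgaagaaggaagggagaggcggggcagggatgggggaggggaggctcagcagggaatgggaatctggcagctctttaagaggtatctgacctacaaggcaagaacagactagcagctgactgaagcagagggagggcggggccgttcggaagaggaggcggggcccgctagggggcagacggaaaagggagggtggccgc
Ctsk, chr3:95498960-95499209, plus strand: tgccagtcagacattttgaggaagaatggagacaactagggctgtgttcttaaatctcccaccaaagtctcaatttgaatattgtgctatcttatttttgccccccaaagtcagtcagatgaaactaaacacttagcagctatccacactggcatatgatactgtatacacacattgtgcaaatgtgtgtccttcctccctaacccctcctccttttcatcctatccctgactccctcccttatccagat

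Libraries 1, 2 and 3 held 21002860, 28704952 and 25338616 gene counts. The fibroblast markers Col1a2, Col1a1 and Dcn were at 10851 to 12570, 4137 to 5764 and 3523 to 4527 counts per 1000000 gene counts (CPM). Library 1 stood apart. Across 14375 genes of these libraries, GC content and the log2 difference of library 1 from the others had a Spearman correlation of 0.608. The 14 macrophage and microglia markers summed to 821, 817 and 1182 CPM in libraries 1, 2 and 3, and to 11.3, 221 and 639 CPM without Tmem119, which made up most of the sum in libraries 1 and 2 and was left out after its values were seen. The 6 choroid plexus markers summed to 80.6, 1670 and 2422 CPM. In these sorted bulk samples fewer cells of a type and less RNA per cell cannot be told apart.

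The 10 genes together took 1.94%, 1.31% and 1.28% of gene counts in libraries 1, 2 and 3. Cystatins made up 0.891%, 0.459% and 0.431%, and the 7 cathepsins 1.05%, 0.850% and 0.846%. Library 1 had the highest share of both kinds. Per kilobase of exon, a scale that takes the annotated length of each gene into account, the order by mean was Cst3, Ctsd, Ctsb, Ctsz, Ctsk, Cstb, Ctsl, Ctsh, Ctsf and Cst6. The middle of this order depended on the length used, as given below.

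**Figure D1:**
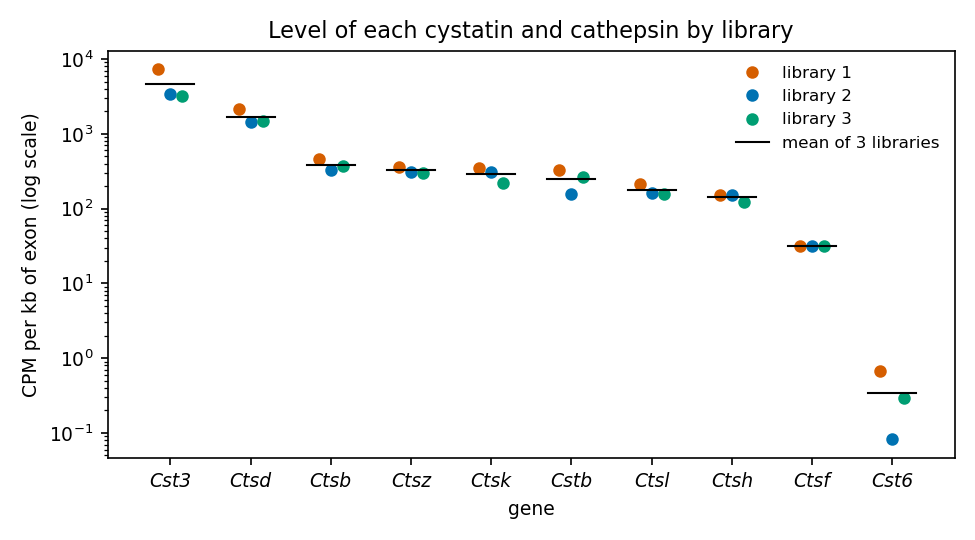
CPM per kilobase of exon (log axis) of the 10 genes, with 1 point per library and a bar at the mean of the 3 libraries. Cst3 is highest in each library and Cst6 lowest, and the genes from Ctsb to Ctsh lie between 121 and 460 CPM per kilobase.

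Among the inhibitors, nearly all signal came from Cst3 (ENSMUSG00000027447.6, GRCm38 chromosome 2, 148871722 to 148875692, minus strand), which encodes cystatin C. In libraries 1, 2 and 3 it stood at 9252, 4335 and 4055 CPM (5881 ± 2923, SD, n = 3). Library 1 stood 2.28-fold above library 3, and libraries 2 and 3 were close to each other. By mean CPM it ranked 10 among the 14409 genes tested, and by mean CPM per kilobase of exon it ranked 5. Of the summed cystatin signal per kilobase it made up 94.6% ± 1.90 (SD, n = 3).

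Cstb (ENSMUSG00000005054.6, chromosome 10, 78425669 to 78427622, plus strand), the cytosolic inhibitor whose loss causes a progressive myoclonus epilepsy in people, was at 200 CPM, 93.2 CPM and 159 CPM in libraries 1, 2 and 3. It was lowest in library 2, unlike Cst3, and its highest library exceeded its lowest 2.15-fold. Per kilobase its mean was 250 ± 89.6 CPM (SD, n = 3), which is 5.43% of the summed cystatin signal.

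Cst6 (ENSMUSG00000024846.5, chromosome 19, 5344705 to 5349574, minus strand) encodes cystatin E/M, an inhibitor known from skin that also blocks legumain. It had 54, 10 and 31 counts, or 2.73, 0.336 and 1.20 CPM. The 95% exact Poisson intervals, which cover counting error only, were 2.05 to 3.56, 0.161 to 0.618 and 0.812 to 1.70 CPM. How many genes of similar counts have intervals this far apart was not computed. Cst6 was too low for the main test of variation between libraries. It was tested with all genes that had any count, with a mean count of at least 10 and without library 2, and was not called. Of the 8 keratinocyte markers Krt5, Ivl and Dsg3 had 0 counts in all libraries. The most abundant were Krt10 at 3.74 to 8.13 CPM, Lor at 0.404 to 0.504 CPM and Krt14 at 0.116 to 0.605 CPM. Lor had 8, 15 and 13 counts and Krt14 had 4, 18 and 3, so their order between libraries is uncertain. Trp63 had 3, 0 and 0 counts. The part of keratinocytes in the Cst6 values was not tested.

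The most abundant protease was Ctsd (ENSMUSG00000007891.15, chromosome 7, 142375911 to 142388038, minus strand), which encodes the aspartic protease cathepsin D. It was at 5095, 3415 and 3514 CPM in libraries 1, 2 and 3 (4008 ± 943, SD, n = 3), highest in library 1. It ranked 17 by CPM and 16 by CPM per kilobase. Ctsd made up 57.9%, 52.9% and 55.4% of the 7 cathepsins' summed CPM per kilobase, so its part of the sum changed little between libraries.

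Ctsb (ENSMUSG00000021939.7, chromosome 14, 63122462 to 63145923, plus strand) encodes cathepsin B, which trims the carboxy end of its substrates as well as cutting within them. Its levels were 2782, 1963 and 2254 CPM (2333 ± 415, SD, n = 3), the highest of the cysteine cathepsins. Fdft1 on the opposite strand shares 774 bases, or 12.8%, of its annotated exon bases, and reads there could have been lost or misassigned. Other members overlap too. Ctsd shares 34.4% of its exon bases with Gm49369 on the same strand. Ctsl shares 26.8% with Gm47123 on the opposite strand and 6.09% with the pseudogene Gm49230. These overlapping genes of Ctsd and Ctsl had no row of their own, so their reads could have been counted to Ctsd and Ctsl.

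Ctsl (ENSMUSG00000021477.8, chromosome 13, 64359337 to 64370890, minus strand), which encodes the endopeptidase cathepsin L, was at 1390, 1063 and 1027 CPM. Its place in the order depended on the length used. Over the 6489 annotated exon bases it was at 179 ± 30.8 CPM per kilobase (SD, n = 3), below Ctsz and Ctsk, whereas undivided CPM and CPM per kilobase of coding sequence put it above both.

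Ctsh (ENSMUSG00000032359.14, chromosome 9, 90054152 to 90076089, plus strand) encodes cathepsin H, mainly an aminopeptidase, and was at 688, 688 and 546 CPM. Ctsz (ENSMUSG00000016256.10, chromosome 2, 174427493 to 174439039, minus strand) encodes the carboxypeptidase cathepsin Z and was at 520, 450 and 437 CPM. For Ctsh libraries 1 and 2 were alike and library 3 was lower, whereas for Ctsz libraries 2 and 3 were alike. Their highest library exceeded their lowest 1.26-fold and 1.19-fold.

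Ctsk (ENSMUSG00000028111.4, chromosome 3, 95499256 to 95509362, plus strand) encodes cathepsin K, the collagen-cutting protease for which osteoclasts are known. It was at 535, 465 and 330 CPM (444 ± 104, SD, n = 3), lowest in library 3. Among 8 osteoclast markers, Acp5 was at 79.9, 76.4 and 62.6 CPM, Mmp9 at 88.6, 39.8 and 10.9 CPM and Nfatc1 at 41.8, 40.3 and 36.3 CPM. All of these are also made by other cells. The others of the list, Oscar, Calcr, Ocstamp, Atp6v0d2 and Dcstamp, each stayed at or below 0.617 CPM in every library. The osteoclast list summed to 211, 157 and 112 CPM. The part of osteoclasts in the Ctsk values was not tested.

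Ctsf (ENSMUSG00000083282.2, chromosome 19, 4855130 to 4860918, plus strand), whose protein carries a cystatin-like domain in its propeptide, was the lowest cathepsin of the set at 159, 159 and 157 CPM. Its coefficient of variation over libraries was 0.654%, against a median of 22.8% over the 1832 tested genes with a mean of at least 100 CPM. The 10 genes thus ranged from a spread of 1.01-fold between libraries in Ctsf to 8.12-fold in Cst6. The closeness of Ctsf between libraries depended on the scaling. Its log2 difference of library 1 from the others was -0.12 with plain library totals. After removal of the trends with GC content and exon length it was -0.31.

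**Figure D2:**
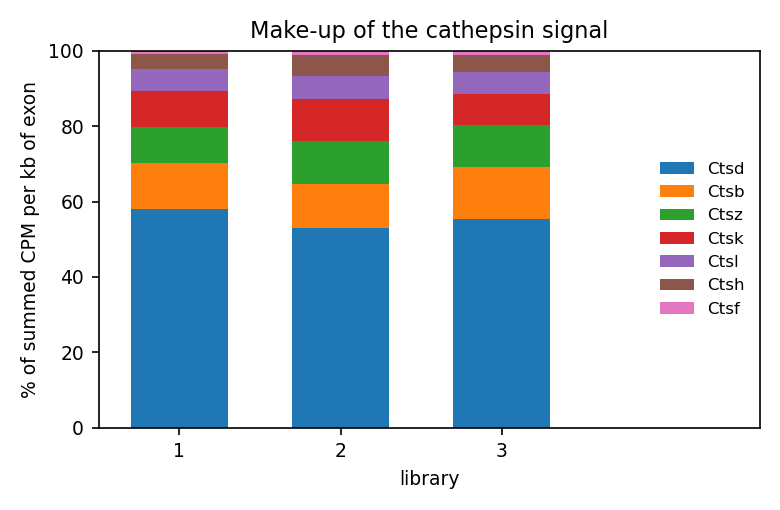
Share of each cathepsin in the summed CPM per kilobase of exon of the 7 cathepsins, as stacked bars that add to 100% in each library. Ctsd fills 52.9% to 57.9% of each bar and Ctsb 11.8% to 13.8%, and Ctsf is the thinnest band.

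Neighbours in the order per kilobase were compared within each library. Of the 9 neighbouring pairs, 7 had the same order in 3 of 3 libraries. Cst3 exceeded Ctsd by 1.36 ± 0.34 and Ctsd exceeded Ctsb by 2.13 ± 0.12 on the log2 scale (SD, n = 3). Ctsb and Ctsz (0.23 ± 0.16), Ctsz and Ctsk (0.17 ± 0.26) and Ctsl and Ctsh (0.32 ± 0.20) lay close together although each pair kept its order. Ctsk against Cstb and Cstb against Ctsl changed order between libraries. After removal of the trends with GC content and exon length, only 5 of the 9 pairs were ordered alike in every library. Under the alternative lengths Cst3, Ctsd and Ctsb stayed at the top in that order and Cst6 stayed last, whereas Ctsl, Ctsh, Ctsz, Ctsk and Cstb changed places.

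The summed transcripts of the 3 cystatins were then set against those of the 6 cysteine cathepsins, the proteases that cystatins bind. Per kilobase of exon the cystatins were 4.86-fold the cathepsins in library 1, 2.77-fold in library 2 and 2.88-fold in library 3. On the log2 scale the ratio was 1.76 ± 0.45 (SD, n = 3), and 1.50 without library 1. Undivided by length the ratios were 1.56, 0.925 and 0.887, below 1 in libraries 2 and 3. The direction rested on Cst3: without it the log2 ratio was -2.50 ± 0.49. This is a ratio of transcripts, and protein, secretion and protease activity were not measured.

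Variation between libraries was tested with edgeR's goodness-of-fit test across all 14409 genes that passed the filter, at an adjusted p threshold of 0.05 (Benjamini-Hochberg). The test called 63 genes, or 0.437% of those tested. Of the members 9 of 10 passed the filter, Cst6 being too low in library 2, at 0.336 CPM. Of the 9, 0 were called, a share that the low background leaves uninformative. At an unadjusted p below 0.05 the count was also 0 of 9, beside 1015 of all 14409 genes tested. Cst3 came nearest, with an unadjusted p of 0.112 and an edgeR adjusted p of 0.913 (at least 0.822 under each alternative). None of the members was called under any of the 9 alternatives run, which says only that their spread did not stand out at the dispersion of these libraries. Cst6 was tested in only some of these alternatives. Of the marker lists, the test called 8 of 9 macrophage genes that passed the filter, 3 of 6 of the choroid plexus and 2 of 2 of the lymphocytes. It called 1 of 4 of the osteoclasts (Mmp9, edgeR adjusted p = 0.0354). Of the fibroblast, astrocyte and keratinocyte markers it called 0 of 8, 0 of 6 and 0 of 1.

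Library 1 was then set against the mean of the other libraries, and all 10 differences were above 0. The difference in log2(CPM + 1) was 1.14 for Cst3, 1.12 for Cst6, 0.71 for Cstb, 0.56 for Ctsd, 0.45 for Ctsk, 0.41 for Ctsl, 0.40 for Ctsb, 0.23 for Ctsz, 0.17 for Ctsh and 0.0051 for Ctsf. Without library 2 and without library 3 the difference was 0.33 and 1.10 for Cstb, 0.70 and 0.20 for Ctsk, 0.33 and 7.46e-05 for Ctsh, and 0.014 and -0.0038 for Ctsf, so these values rested on which library was compared. The median was 0.43, against -0.0048 over all genes tested, of which 49.7% were above 0. Tested genes with a mean of at least 100 CPM, as each of the 10 except Cst6 had, had a median of 0.22 and a range from -1.04 to 1.07 between their percentiles 5 and 95. With plain library totals, which shift the median of all genes to -0.11, 9 of 10 were above 0 and Ctsf was at -0.12. After removal of the trends with GC content and exon length 7 of 9 were above 0, Cst3 was at 0.62 and Ctsd at 0.16, and Ctsf (-0.31) and Ctsz (-0.27) were lower in library 1. Ctsl, with a GC content of 44.3%, moved up to 0.96.

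**Figure D3:**
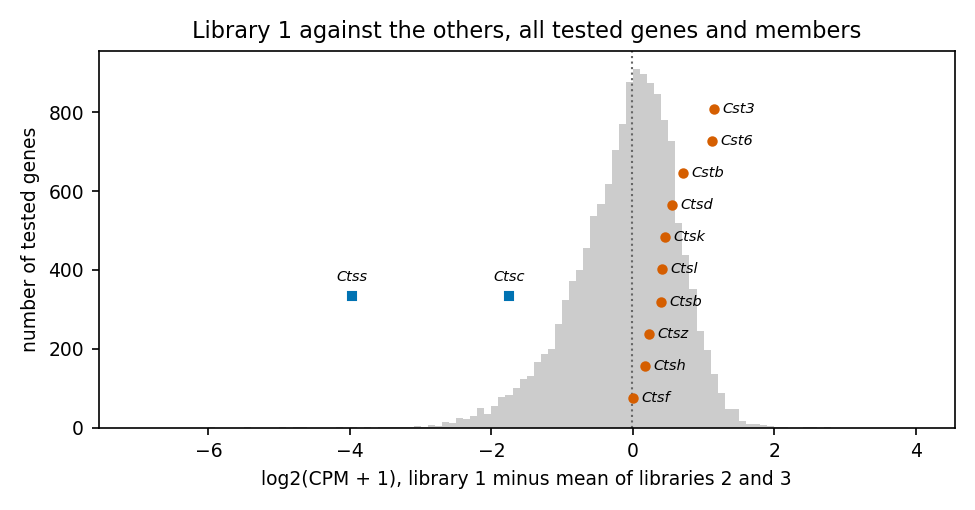
Histogram of log2(CPM + 1) in library 1 minus the mean of libraries 2 and 3 for the 14409 genes tested, with a dotted line at their median; circles are the 10 cystatins and cathepsins and squares are Ctss and Ctsc, at heights chosen for legibility. The circles run from 0.0051 to 1.14, and the squares lie at -3.97 and -1.75.

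Macrophages and microglia are rich in cathepsins and in cystatin C, so their markers were read beside the members. Of 14 such markers 13 were lowest in library 1. C1qb was at 1.62, 39.2 and 130.1 CPM, C1qa at 2.02, 31.4 and 90.5 CPM, and Adgre1 at 0, 6.59 and 19.4 CPM. The exception was Tmem119, at 809, 596 and 544 CPM, which bone-forming cells also express. Cst3, Ctsd, Ctsb, Ctsl and Ctsz were highest in library 1, in which C1qa, C1qb, C1qc, Csf1r and Adgre1 were at or below 2.02 CPM. The part of macrophages in the members' values was not tested.

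Choroid plexus epithelium and astrocytes also make cystatin C. The choroid plexus markers Enpp2, Kcnj13 and Clic6 were at 41.7, 2.27 and 13.5 CPM in library 1, where Cst3 was highest, and at 1503 to 2237, 37.6 to 48.2 and 41.3 to 43.3 CPM in the others. The 6 astrocyte markers, of which Aldoc, Slc1a3 and Gfap were the most abundant per kilobase, summed to 65.3, 53.8 and 105 CPM. Of the lymphocyte markers Cd79a was at 1.21, 20.1 and 20.7 CPM and Cd79b at 0.808, 14.8 and 16.6 CPM, whereas Cd3e had 12, 0 and 7 counts. The part of these cells in the members' values was not tested.

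Other cathepsins behaved in different ways. Of 16 further genes of that name, 10 had 0 counts in all libraries, among them the neutrophil protease Ctsg and the placental members such as Cts6, Ctsj and Ctsq. A count of 0 allowed up to 0.152, 0.101 and 0.116 CPM per library. Only 4 passed the filter. Ctsa, a serine carboxypeptidase that also shields lysosomal sialidase, was at 756, 513 and 497 CPM, and the little-studied Ctso at 110, 166 and 115 CPM.

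Ctss, which encodes the cathepsin of antigen-presenting cells that trims the MHC class II invariant chain, was the one called as variable. It had 12, 433 and 1025 counts, or 0.606, 14.6 and 39.5 CPM, a spread of 65.2-fold (edgeR adjusted p = 5.70e-06). It was lowest in library 1, as 13 of the 14 macrophage markers were, and their part in it was not tested. The call was lost without library 1 (edgeR adjusted p = 0.269) and without library 3 (edgeR adjusted p = 0.116). Ctsc, named here after its values were seen, encodes the dipeptidyl peptidase that activates granule proteases of leukocytes. It was at 21.9, 67.0 and 85.6 CPM and was not called (edgeR adjusted p = 0.396).

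**Figure D4:**
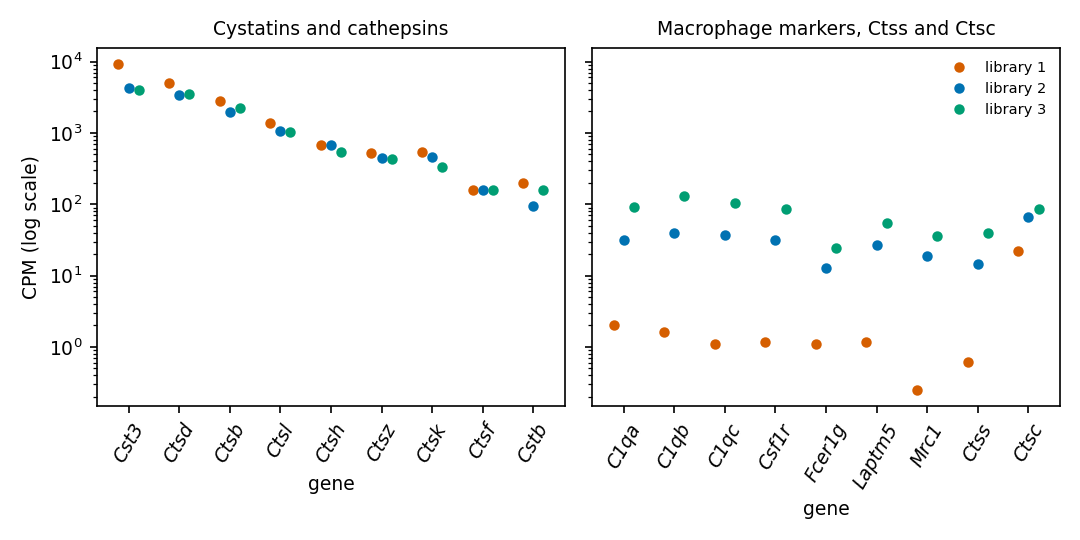
CPM (log axis) of 9 of the 10 cystatins and cathepsins (left) and of 7 macrophage markers with Ctss and Ctsc (right), with 1 point per library; Tmem119, a marker of that list that was highest in library 1, is not drawn. On the right each gene drawn is lowest in library 1, which reaches at most 2.02 CPM except for Ctsc at 21.9 CPM, whereas on the left library 1 is highest or level with another library.

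Other cystatins were nearly silent. Of 21 listed genes 17 had a row, 12 of these had 0 counts in all libraries, and 1 passed the filter. That gene was Fetub, a fetuin, at 2.63, 0.571 and 0.386 CPM. Kng2, a kininogen, had 17, 1 and 12 counts. Cst7, cystatin F of immune cells, had 1, 0 and 5 counts. Cst3 and Cstb were thus the only genes of the 3 cystatins and these 17 above 3 CPM in any library.

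Lysosomal genes of other roles were read from lists of the sorting and biogenesis genes, the hydrolases and the membrane and proton pump genes. All of their 15, 28 and 21 genes passed the filter. By edgeR goodness of fit 0 of each list were called, beside the 0.437% called over all genes. An unadjusted p below 0.05 was reached by 0, 0 and 1, the last being Cd68, beside 1015 of all 14409 genes tested. Their median levels were 74.5, 123 and 158 CPM, against 18.0 CPM over all genes tested. Library 1 was highest for 9 of the 15, 18 of the 28 and 10 of the 21. Their median differences of library 1 from the others were 0.22, 0.21 and 0.0090 in log2(CPM + 1), each smaller than the 0.43 of the cystatins and cathepsins. The latter were chosen by their counts and had a higher median level, 555 CPM. Tested genes with a mean of at least 100 CPM had a median difference of 0.22. After removal of the trends with GC content and exon length the lists were at 0.11, 0.25 and 0.18, against 0.36.

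Psap, the precursor of the saposins, led the sorting list per kilobase and stood at 3522, 2605 and 2558 CPM. Grn, which encodes progranulin, followed at 1351, 878 and 684 CPM, and Gnptg, a subunit of the enzyme that makes the mannose 6-phosphate tag and next per kilobase, was at 302, 164 and 144 CPM. Named for their role, the tag's receptors M6pr and Igf2r were at 316 ± 33.7 and 74.5 ± 12.0 CPM (SD, n = 3), and Lgmn, the legumain protease that cystatins C and E/M also inhibit, was at 139 ± 17.7 CPM (SD, n = 3). Of the E-box-binding regulators, Tfe3 was at 93.4 ± 23.3 CPM, Mitf at 19.7 ± 5.72 CPM and Tfeb at 8.16 ± 1.88 CPM (SD, n = 3).

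Among the hydrolases Gaa, the acid alpha-glucosidase, was at 2084, 1287 and 1110 CPM, and Hexa, a subunit of beta-hexosaminidase, at 441, 451 and 484 CPM. Lgals3bp, a secreted glycoprotein on that list although it is no hydrolase, was at 1012, 770 and 401 CPM. In the membrane list Laptm4a was at 1590, 2168 and 2059 CPM, the tetraspanin gene Cd63 at 1518, 872 and 1031 CPM, and Atp6ap1, an accessory subunit of the proton pump, at 913, 794 and 762 CPM. CACGTG stood in 7 of 22 promoters of the sorting list, 6 of 22 of the hydrolases and 4 of 20 of the membrane list.

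Of 9 serpins and other listed inhibitors 7 passed the filter. By edgeR goodness of fit 0 of them were called, beside the 0.437% called over all genes. Only 1, A2m, had an unadjusted p below 0.05, beside 1015 of all 14409 genes tested. The most abundant were Serpinh1 (2911, 2094 and 2913 CPM), Serping1 (3075, 1614 and 1322 CPM) and Serpinb9 (203, 416 and 334 CPM). None of these is known mainly as a cathepsin inhibitor, since they are a collagen chaperone, the inhibitor of the complement protease C1 and the inhibitor of granzyme B. Serping1 was highest and Serpinb9 lowest in library 1.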

How the data were processed

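RNA of sorted leptomeningeal cells was sequenced in 3 libraries of 1 group. The deposited values were raw counts per gene, whole numbers with no normalization. The submitters' processing notes name HTSeq 0.5.3, DESeq2 1.22.1 and the build mm10; the aligner, annotation release and strand setting are not given in the sources used here. Reads in the 5 counter rows that name no gene (39.1% to 45.6% of a library's total) were left out. The kit does not mark strand, so reads of overlapping antisense genes could not be told apart. Exon lengths, GC content of the longest transcript and coordinates came from GENCODE M21 on GRCm38, the assembly called mm10, which matched 46488 of 46983 gene identifiers.

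TMM scaling factors from edgeR 4.0.16 (R 4.3.3) were applied, and filterByExpr at a minimum count of 10 left 14409 genes. With 1 group the quasi-likelihood test has no contrast. Spread between libraries was tested by goodness of fit in edgeR, given the trended dispersion (Benjamini-Hochberg, threshold 0.05). The step was also run on counts simulated at the fitted means, with the fitted dispersion or a fraction of it. That simulation had no GC, length or amplification effects, so it does not give the error rate of the test on these libraries. Log2 differences used a pseudocount of 1 CPM and understate changes of low genes. Trends of each library with GC content and exon length were removed by smoothing splines as an alternative. Per-kilobase levels used all annotated exon bases. No molecular identifiers were used, so amplified reads are not independent and intervals and floors cover only counting error.

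The members and lists were chosen with earlier results of these data known. The rule named all members, the 3 most abundant genes per kilobase of each list, the called genes of related lists and the markers at 0 in all libraries. Genes named for their role stand outside it. A further item that the rule named is not reported here.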

Additional observations from a re-analysis of the deposited data

Results flagged for a closer look

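Reads that the table gave to no gene lie outside the measurement used above. They made up 45.6293% of the table total in library 1, 39.1073% in library 2 and 39.5679% in library 3. Their part in the values above was not tested.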

How the results depend on the processing

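No member was called variable under any alternative in which it was tested. Cst6 was tested only with all genes that had any count, with a mean count of at least 10 and without replicate 2. The count of variable genes over the whole table (63) was 134 with all genes that had any count and 181 with a mean count of at least 10, both of which test more genes, and 102 after removal of the trends with GC content and length, where the cause was not tested. Leaving out each replicate in turn gave 12 to 28. The log2 ratio of cystatins to cysteine cathepsins (1.76) was 0.12 with CPM not divided by length and -2.50 without Cst3. It ranged from 1.50 to 1.90 when one replicate was left out, and from 1.40 to 2.04 under other lengths, of which the principal transcript and its coding sequence were chosen after seeing the data. The number of neighbouring pairs ordered alike in every library (7) was 5 to 8, and the median difference of library 1 (0.43) was 0.30 to 0.44. For Ctss, 2 of the fits without a replicate ended the call. No paired analysis was possible because all samples belong to 1 group. Depth limited Cst6 and the genes at 0, which could reach 0.152 CPM in library 1.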
